A study of Mus musculus with 5 samples.

Results

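The cells described are fibroblasts of the mouse mammary gland that carried transcripts of *Pi16*, a secreted peptidase inhibitor, *Anxa3*, a calcium-dependent membrane-binding annexin, and *Efhd1*, a calcium-binding mitochondrial protein. They numbered 3526 of 6276 fibroblast barcodes (56.2%) and of 14344 barcodes in 5 single-cell RNA sequencing libraries (24.6%). A barcode counted as a fibroblast when *Col1a1*, *Col1a2*, *Col3a1* and *Dcn* together had at least 50 and *Epcam* and *Krt18* together under 5 unique molecular identifiers (UMIs) per 10000, with 0 UMIs of *Ptprc* and at most 10% mitochondrial UMIs. It was taken as *Pi16*/*Anxa3* fibroblast when the UMIs of *Pi16*, *Anxa3* and *Efhd1* summed to at least 3 and to at least 2 times each of 3 other sums, *Col15a1* + *Smoc2* + *Vtn*, *Inmt* + *Fgl2* + *Gdf10* and *Spon1* + *Tnc* + *Crabp1*. Levels of these 12 genes in the chosen cells therefore follow from the choice and are given as a description. Of the remaining fibroblast barcodes, 258 met the same rule for the *Col15a1* sum, 1120 for the *Inmt* sum and 176 for the *Spon1* sum, while 1196 met none.

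The libraries came from number 4 mammary glands of BALB/cj mice aged 30 weeks, 20 weeks after removal of the ovaries and after 1 week of treatment, with 1 library per group. OVX mice received vehicle. OVX_E2 mice received 17β-estradiol at 1 µg per animal, OVX_E2_P4 mice estradiol with progesterone at 0.1 mg per animal, and OVX_E2_PBDE and OVX_E2_P4_PBDE mice the same hormones together with food holding polybrominated diphenyl ethers (PBDEs), flame retardants of which 3 congeners were given, BDE-47 at 7.1, BDE-100 at 0.4 and BDE-153 at 0.9 mg/kg. Every mouse, controls included, lacked ovaries, the cells came from digested glands without the lymph node, after lysis of red blood cells and removal of dead cells and without sorting, and the number of mice behind each library is not given in the sources used here. Since no group had a second library, no difference between groups could be set against replicate spread, no test was run, and every interval below covers counting error only.

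Fibroblasts around blood vessels and in the loose connective tissue between organs form a population that recurs in many mouse tissues and is recognized by *Pi16* and by *Dpp4*, a membrane dipeptidase. In fat depots, cells of this kind lie in the interstitium and can give rise to preadipocytes, which carry *Icam1* and lipid-handling genes. The mammary epithelium grows into such a fat pad, and the stroma around it carries receptors for ovarian steroids and supplies matrix and growth factors to the ducts.

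The bases upstream of the RefSeq start are shown for rule genes, for *Akr1c18*, a named marker that the rule did not use, and for *Mrgprg*, the gene first in the contrast with other fibroblasts below among genes with at least 50 UMIs in each library, so that the genes defining and varying in these cells can be read beside their values. All 4 stretches are 250 bases on build GRCm38.p6, written 5′ to 3′ on the strand of the gene, with matches to the searched motifs in capitals. They lie at chr17:29318632-29318881 on the + strand (*Pi16*), chr1:87264103-87264352 on the + strand (*Efhd1*), chr13:4150647-4150896 on the − strand (*Akr1c18*) and chr7:143766994-143767243 on the − strand (*Mrgprg*). *Anxa3* was not shown.
Pi16: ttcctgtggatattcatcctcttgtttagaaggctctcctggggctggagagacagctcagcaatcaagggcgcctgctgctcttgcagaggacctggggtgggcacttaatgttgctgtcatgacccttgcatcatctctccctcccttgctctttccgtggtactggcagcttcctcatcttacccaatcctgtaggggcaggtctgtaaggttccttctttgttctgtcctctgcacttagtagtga
Efhd1: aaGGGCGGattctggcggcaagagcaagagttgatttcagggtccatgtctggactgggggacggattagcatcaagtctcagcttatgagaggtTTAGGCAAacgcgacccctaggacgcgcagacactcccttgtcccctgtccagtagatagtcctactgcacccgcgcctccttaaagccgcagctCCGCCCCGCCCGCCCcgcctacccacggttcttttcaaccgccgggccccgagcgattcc
Akr1c18: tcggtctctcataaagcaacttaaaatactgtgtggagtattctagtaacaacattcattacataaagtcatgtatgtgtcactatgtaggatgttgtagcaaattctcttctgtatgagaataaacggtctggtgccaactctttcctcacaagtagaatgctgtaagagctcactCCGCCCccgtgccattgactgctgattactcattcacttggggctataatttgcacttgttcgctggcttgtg
Mrgprg: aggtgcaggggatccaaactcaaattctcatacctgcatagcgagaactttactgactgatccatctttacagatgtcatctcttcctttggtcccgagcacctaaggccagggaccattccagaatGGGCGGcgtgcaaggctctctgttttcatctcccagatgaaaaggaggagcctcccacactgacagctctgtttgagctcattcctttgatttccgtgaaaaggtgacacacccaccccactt
Searched on both strands were AP-1 (TGANTCA), the estrogen response element, the steroid receptor element (ACANNNTGT), C/EBP (TTGCNNAA), the TATA box (TATAAA) and the GC box (GGGCGG), which occur in 6.75%, 0.0639%, 5.84%, 9.56%, 12.4% and 32.7% of 32851 mouse promoter windows of the same length. The *Efhd1* window held 4 GC boxes, of which 3 overlap, and 1 C/EBP match at -155 from the start. The *Akr1c18* and *Mrgprg* windows held 1 GC box each, and the *Pi16* window held no match. A match is a description of the letters and not a binding site.

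In GRCm38 with GENCODE M21, *Pi16* lies on chromosome 17 at 29317680 to 29330593 (7 exons in its longest coding transcript), *Anxa3* on chromosome 5 at 96793339 to 96845966 (13 exons), *Efhd1* on chromosome 1 at 87264363 to 87310839 (4 exons), *Akr1c18* on chromosome 13 at 4132615 to 4150654 (9 exons) and *Mrgprg* on chromosome 7 at 143763710 to 143766993 (2 exons). The *Pi16* window shown above, upstream of its RefSeq start, lies inside this GENCODE span, and the *Akr1c18* window overlaps the end of its span. The *Efhd1* window ends at 87264352, short of the base before its GENCODE start. RefSeq and GENCODE thus place the starts of *Pi16*, *Efhd1* and *Akr1c18* differently. The libraries count the 3′ end of transcripts, so the values below do not resolve promoters or exons.

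The libraries held 3109 (OVX), 2233 (OVX_E2), 3536 (OVX_E2_PBDE), 3107 (OVX_E2_P4) and 2359 barcodes (OVX_E2_P4_PBDE), with 20293934, 29590862, 42012988, 32648416 and 19982067 UMIs. This order of the 5 libraries is kept wherever 5 values follow each other. The *Pi16*/*Anxa3* fibroblasts supplied 6755807, 3150600, 9119314, 1596068 and 2113416 of these UMIs, so values from OVX_E2_P4 rest on the fewest. A median cell had 5747, 6721, 7223, 5813 and 4252 UMIs, against 4633, 6608, 6604, 5295 and 4269 in the other fibroblasts. Mitochondrial UMIs made up a median of 1.54%, 1.156%, 1.28%, 1.56% and 1.13%, below the other fibroblasts in each library (1.83% to 2.81%). Of 14263 distinct barcode sequences, 80 occurred in more than 1 library, 27 of them with a *Pi16*/*Anxa3* fibroblast in at least 1, and 4 were such cells in every library that held them.

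The sum that chose the cells had a median of 38, 37, 41, 27 and 21 UMIs in them and of 2, 2, 2, 1 and 2 in the other fibroblasts, a gap that the rule itself sets. The minimum alone was reached by 1670, 609, 1483, 365 and 556 fibroblasts, and a sum of at least 10 by 1277, 507, 1281, 282 and 447, more than the 1124, 428, 1172, 257 and 427 chosen cells with such a sum. Of the chosen cells, 3 sat at the minimum of 3, against 4 barcodes at 2 that met the other conditions. At the limit of the ratio to the other sums, the 343 cells with a ratio from 2 to under 3 had 254.6 *Dpp4* UMIs per 1000000 of their own UMIs (CPM), 409.5 CPM of *Sema3c* and 201 CPM of *Akr1c18*, and the 379 barcodes just outside, with a ratio from 1 to under 2, had 238, 316 and 153 CPM.

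**Figure D1:**
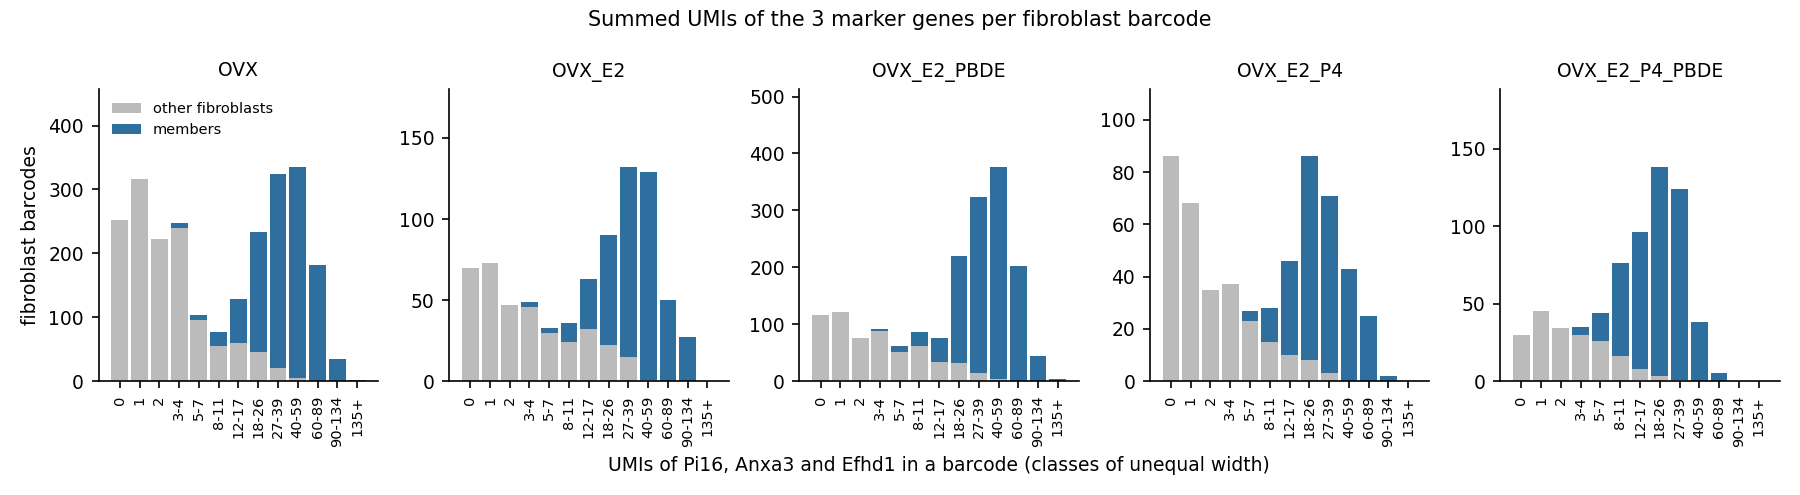
Number of fibroblast barcodes (vertical axis) by their summed UMIs of Pi16, Anxa3 and Efhd1 (horizontal axis) in each of the 5 libraries, with chosen cells in blue stacked on other fibroblasts in grey. The chosen cells have medians of 21 to 41 UMIs and the other fibroblasts of 1 to 2.

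*Pi16* itself had 5617, 4459, 4359, 4242 and 4004 CPM in the chosen cells and 609, 601, 535, 440 and 560.3 CPM in the other fibroblasts. *Anxa3* had 1234, 1231, 1208, 1021 and 1013 CPM against 192, 202, 189, 106 and 212 CPM. *Efhd1* had 286, 175, 204, 176 and 173 CPM against 31.2, 31.5, 24.2, 16.1 and 30.0 CPM. The chosen cells were above the other fibroblasts in each library for the 3 genes, by construction, and *Pi16* and *Efhd1* were highest in OVX. Epithelial barcodes, which should lack *Pi16*, had 187, 64.3, 86.6, 51.0 and 117 CPM of it, also highest in OVX, and 43%, 15.2%, 21.6%, 14.0% and 30.5% of them had a *Pi16* UMI after thinning to 3000 UMIs, against at least 99.1% of the chosen cells and 47.7% to 62.2% of the other fibroblasts.

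*Akr1c18*, a hydroxysteroid dehydrogenase that inactivates progesterone, was the named marker that took no part in the choice. It had 263.5, 425, 324, 313 and 357 CPM in the chosen cells, 21.7, 55.7, 39.5, 29.9 and 66.7 CPM in the other fibroblasts and 3.18 to 6.85 CPM in epithelial barcodes. With every barcode thinned to 3000 UMIs, 39.98%, 53.8%, 45.3%, 46.8% and 46.8% of the chosen cells had an *Akr1c18* UMI, against 3.81% to 11.9% of other fibroblasts and 0.458% to 2.04% of epithelial barcodes, which should lack it. The chosen cells stood above both in every library, and OVX was the lowest of the 5.

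Genes known from adventitial and interstitial fibroblasts of other tissues carried the same order. Of 32 such genes outside the rule, 29 had at least 50 UMIs over chosen cells and other fibroblasts in each library. Among these, 28 were higher in the chosen cells in all 5 libraries, where 24.3% of 4869 genes with that depth were, and 14 were at least 2-fold higher in all 5, where 2.03% were. With no minimum of UMIs, 31 of the 32 were higher in all 5, where 9.84% of 18479 genes with a UMI in fibroblasts were. The median log2 ratio of the 29 was 1.18, against -0.01 over the 4869 genes. *Tppp3*, a tubulin-binding protein, was the exception, with a median log2 ratio of -0.30 and lower levels in all 5 libraries. On these markers the cells carried the transcripts that the name adventitial-type stands for, while their place in the tissue was not measured. The cells were chosen on values of these same barcodes, and the list was chosen with earlier results of these data known. The counts therefore describe the cells and do not test the name.

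*Dpp4* had 314, 362, 329, 298 and 258 CPM in the chosen cells and 84.2, 114.5, 91.9, 53.8 and 83.4 CPM in the other fibroblasts. *Sema3c*, a secreted guidance cue, had 600.1, 606, 626, 689 and 711 CPM against 101, 137, 115, 89.1 and 128 CPM. *Cd55*, which protects cells from complement, had 369, 312, 303.5, 304 and 292 CPM against 79.9, 82.2, 93.8, 66.4 and 109 CPM. None of the 3 overlapped between the kinds of fibroblast, where 10.8% of the 4869 genes lay above the other fibroblasts without overlap and 9.65% below them. In cells thinned to 3000 UMIs, *Dpp4* was seen in 58.5%, 66.7%, 59.9%, 60.6% and 54.0% of chosen cells, in 16.5% to 22.3% of other fibroblasts and in 1.60% to 4.10% of epithelial barcodes. *Limch1*, an actomyosin regulator, *Bmp7*, a bone morphogenetic protein, *Tmem100* and *Nov*, a matricellular protein, had median log2 ratios of 2.85, 2.29, 2.27 and 2.50. *Il18*, a cytokine, had 98.0, 175, 160.5, 118 and 128 CPM against 22.9, 46.9, 40.7, 29.3 and 45.6 CPM.

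**Figure D2:**
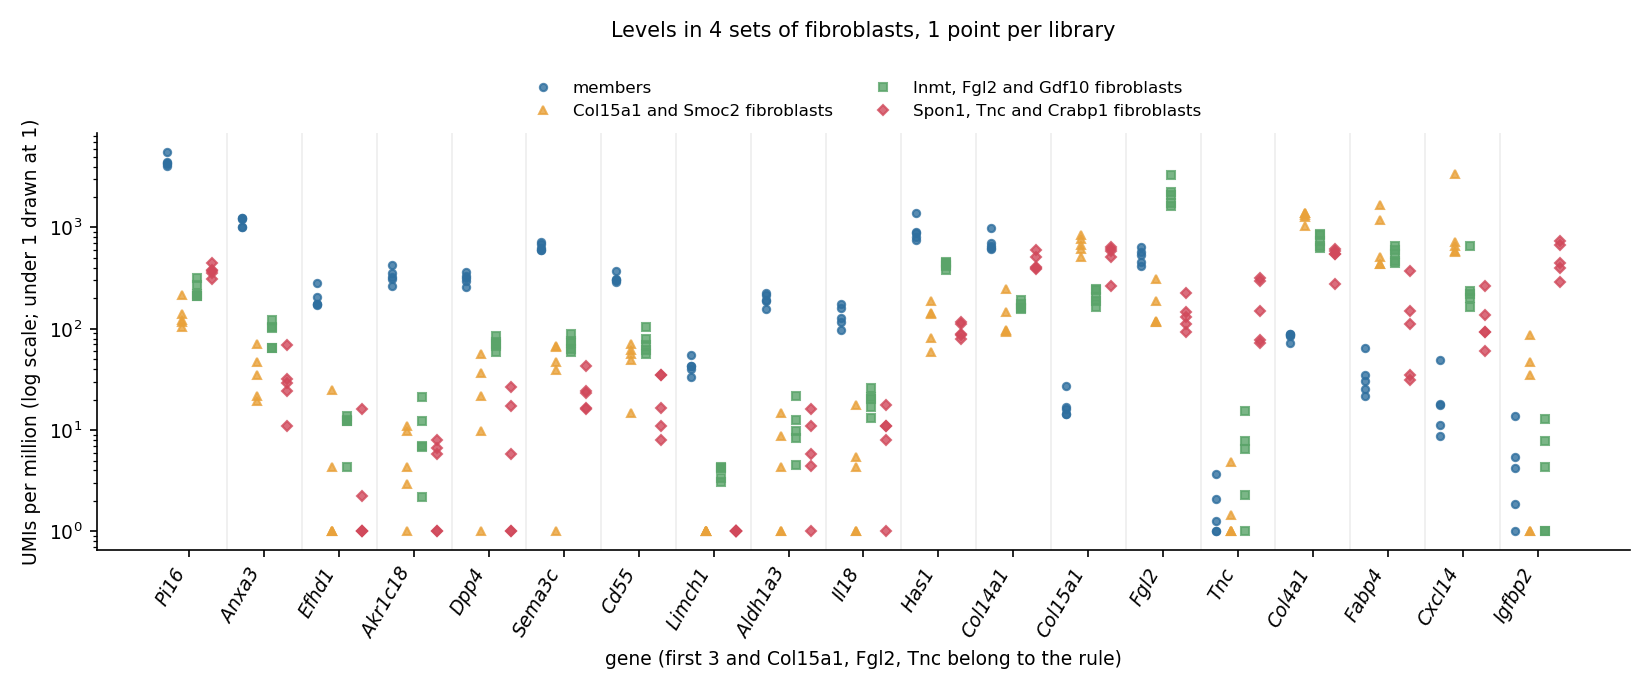
Level in CPM on a log axis of 19 genes in the Pi16/Anxa3 fibroblasts (members) and in the fibroblasts taken by the Col15a1, Inmt and Spon1 sums, 1 point per library, with values under 1 drawn at 1. The points for Akr1c18, Dpp4, Sema3c and Cd55 lie highest in the Pi16/Anxa3 fibroblasts.

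Within a library, the genes whose level followed *Pi16* most closely over fibroblast barcodes were *Anxa3*, with a median Pearson r of 0.80 over the 5 libraries (0.65 to 0.82), *Sema3c* with 0.72 (0.63 to 0.74), *Ackr3*, a scavenging chemokine receptor, with 0.65 (0.54 to 0.69), *Fndc1* with 0.62 (0.49 to 0.67) and *Igfbp6* with 0.62 (0.51 to 0.64). These were the first 5 of 1660 genes with at least 200 UMIs in each library, on log values scaled to 10000 UMIs. The points of one library share its depth and the mixture of fibroblast kinds, and 554 to 2462 barcodes stand behind each r. Clustering the fibroblasts of each library without the rule genes gave 4 to 6 clusters, of which 1 to 3 consisted mostly of chosen cells and held 96.8%, 97.0%, 95.8%, 97.0% and 88.1% of them.

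The share of fibroblasts that were *Pi16*/*Anxa3* fibroblasts was 46.6% in OVX (1148 of 2462, exact Clopper-Pearson 95% interval 44.6 to 48.6), 54.9% in OVX_E2 (439 of 799, 51.4 to 58.4), 66.7% in OVX_E2_PBDE (1198 of 1796, 64.5 to 68.9), 48.6% in OVX_E2_P4 (269 of 554, 44.3 to 52.8) and 71.0% in OVX_E2_P4_PBDE (472 of 665, 67.4 to 74.4). The libraries with PBDEs had the highest shares. The intervals of OVX and OVX_E2_P4 overlapped, as did those of OVX_E2 and OVX_E2_P4 and those of OVX_E2_PBDE and OVX_E2_P4_PBDE. The share was 11.8 percentage points higher in OVX_E2_PBDE than in OVX_E2 (7.62 to 15.9) and 22.4 points higher in OVX_E2_P4_PBDE than in OVX_E2_P4 (16.8 to 27.9). It was 8.32 points higher in OVX_E2 than in OVX (4.27 to 12.3). Adding progesterone went with -6.39 points without PBDEs (-11.9 to -0.866) and 4.27 points with them (0.0550 to 8.36). With *Pi16* left out of the sum, the latter difference was -3.41 points.

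The libraries with PBDEs kept the highest shares when the rule was applied to 3000 UMIs per barcode (65.9% and 69.5%, against 45.8% to 54.6% in the others), when the ratio had to reach 4 (55.6% and 59.7%, against 36.6% to 43.7%) and when *Dpp4*, *Sema3c* and *Cd55* took the place of the rule genes, a choice made after the data were seen (41.2% and 45.0%, against 25.2% to 31.5%). With *Pi16* left out of the sum, the shares were 26.8%, 30.9%, 43.7%, 26.0% and 40.3%, so that the libraries with PBDEs were still highest, the difference was 14.3 points between the pair with progesterone, and OVX_E2_P4_PBDE fell below OVX_E2_PBDE. The clusters made without the rule genes that consisted mostly of chosen cells held 51.3%, 63.7%, 69.5%, 52.9% and 66.2% of the fibroblasts, with OVX_E2_PBDE again above OVX_E2_P4_PBDE, unlike under the rule as given, and a smaller difference between each library with PBDEs and the one with the same hormones without them. Of all barcodes, the cells made up 36.9%, 19.7%, 33.9%, 8.66% and 20.0%, an order in which OVX was highest, as fibroblasts were 79.2% of its barcodes and 35.8%, 50.8%, 17.8% and 28.2% of those of the other 4. The library numbers given with the deposited matrices place those with PBDEs next to one another and apart from the rest, so a batch that follows the numbers and the PBDEs cannot be told apart.

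**Figure D3:**
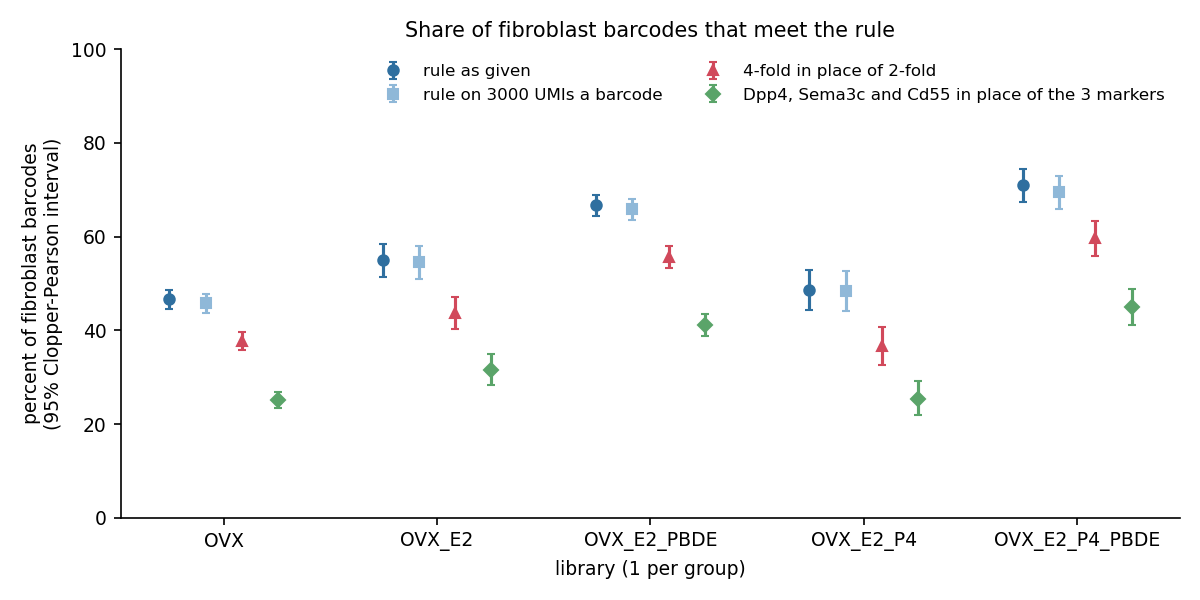
Percent of fibroblast barcodes that met the rule in each library, under the rule as given, on barcodes thinned to 3000 UMIs, with a 4-fold ratio and with Dpp4, Sema3c and Cd55 as marker genes, with exact 95% intervals for counting error. The libraries with PBDEs, at 66.7% and 71.0% under the rule as given, stand highest under each of the 4 settings.

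Outside the rule, the gene with the largest median ratio to the other fibroblasts among the 4869 with at least 50 UMIs in each library was *Mrgprg*, an orphan receptor of the Mas-related family, with a median log2 ratio of 4.22 (3.98 to 5.88 over the libraries, with 1 UMI in the other fibroblasts of OVX_E2_P4_PBDE). It was followed by *Itgb7*, the integrin β7 subunit, with 3.60, *Sbsn*, suprabasin, with 3.48, *Gpr1*, a receptor for chemerin, with 3.37, *Ecscr*, a surface protein first known from endothelium, with 3.3, *Akr1c18* with 3.03 and *Aldh1a3*, which makes retinoic acid, with 2.98. *Gpr1* had 48.7, 45.7, 41.2, 42.6 and 47.8 CPM in the chosen cells and 4.15, 4.99, 3.76, 2.99 and 14.5 CPM in the other fibroblasts. Its level varied little among the 5 libraries, unlike that of *Itgb7*, with 137, 46.3, 55.5, 45.7 and 45.4 CPM. The remaining genes of the first 20 were *Car8*, *Limch1*, *Gap43*, *Tmeff1*, *Arhgef28*, *Nov*, *Lurap1l*, *Sema3c*, *Ccdc109b*, *Pcsk6*, a proprotein convertase, *Rtn1*, *Has2*, a hyaluronan synthase, and *Smpd3*, a sphingomyelinase, with median log2 ratios from 2.91 to 2.39.

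At the other end stood *Igfbp2*, which binds insulin-like growth factors (median log2 ratio -4.92), *Mfap4*, a microfibril protein (-4.24), *Cxcl14*, a chemokine (-4.22), *Fbln7* (-4.15), *Mdk*, the growth factor midkine (-4.14), *Hc*, complement component C5 (-3.93), *Fabp4*, a fatty acid carrier of adipocytes and their precursors (-3.86), *Bgn*, biglycan (-3.72), *Adamts4*, a protease (-3.41), and *Enpp2*, autotaxin (-3.40). *Fabp4* had 30.2, 34.6, 64.9, 21.9 and 25.6 CPM in the chosen cells and 499, 400.2, 304, 326 and 428 CPM in the other fibroblasts. Of 12 genes of committed adipose progenitors with the required depth, 11 were lower in the chosen cells in all 5 libraries, where 24.5% of all genes were, and 9 were at least 2-fold lower in all 5, where 2.4% were. *Icam1* had a median log2 ratio of -1.62, *Lpl*, lipoprotein lipase, of -1.42 and *Cd36*, a fatty acid transporter, of -3.00. *Gpc3*, a glypican, was the 1 higher gene of the 12, at 0.92.

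**Figure D4:**
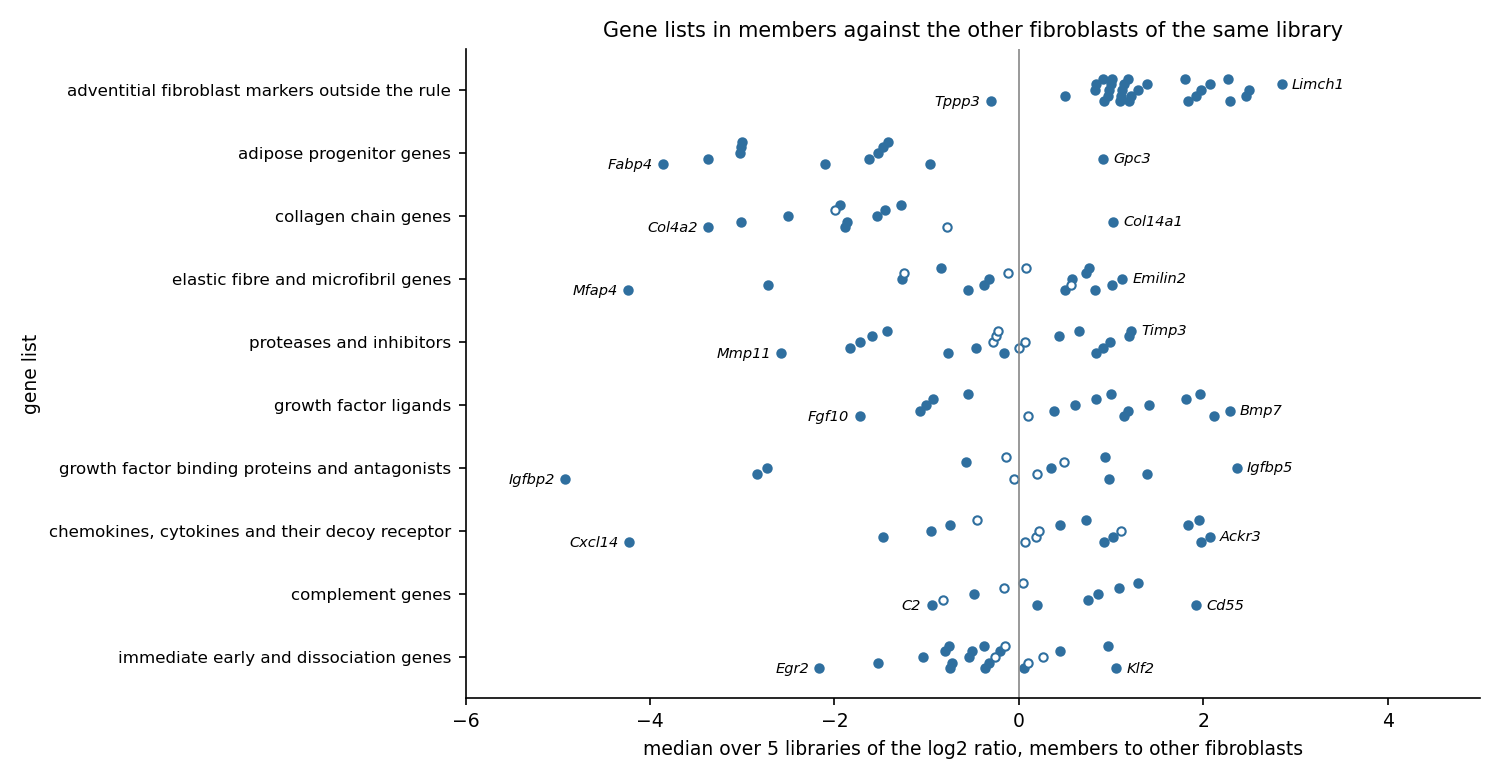
Median log2 ratio over the 5 libraries of single genes between the chosen cells (members) and other fibroblasts, for 10 gene lists, with filled points for genes of 1 direction in all 5 libraries and open points for the rest. Adventitial markers lie to the right of 0 except Tppp3, and collagens lie to the left except Col14a1.

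Genes for collagen chains were lower in the chosen cells. Of 16 measured, 13 were lower in all 5 libraries, where 24.5% of all genes were, 10 of them at least 2-fold, where 2.4% were, and the median log2 ratio was -1.87 against -0.01 over all genes. *Col1a1* had 1895, 2055, 1026, 1818 and 963 CPM in the chosen cells and 3212, 5905, 4466, 5860 and 4455 CPM in the other fibroblasts. *Col3a1* had 2848, 4474, 2437, 3499 and 2167 CPM against 9555, 12556, 11260, 15060 and 9218 CPM. Both are fibrillar chains and took part in the fibroblast gate, which chosen cells and other fibroblasts passed alike. The gate also used *Col1a2*, and a rule sum used *Col15a1*, whose lower level follows from the choice. The counts of collagen chains are therefore given as a description. The basement membrane chains *Col4a1* and *Col4a2* had median log2 ratios of -3.01 and -3.37. *Col14a1*, a fibril-associated collagen, was the 1 chain higher in all 5, with 991, 656, 630.3, 695.5 and 609 CPM against 246, 324, 290, 347 and 318 CPM.

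Of 17 elastic fibre and microfibril genes, 6 were higher and 7 lower in all 5 libraries, where 24.3% and 24.5% of all genes were, with a median of -0.12. Both counts lie above the shares of all genes by few genes. *Emilin2* (1.12), *Fbln5*, which guides elastic fibre assembly (1.01), *Mfap5* (0.83), *Efemp1* (0.76), *Ltbp1*, which holds latent TGFβ (0.73), and *Fbn1*, fibrillin (0.51), were the 6, while *Lox*, the crosslinking oxidase, had -2.72. Of 21 proteases and inhibitors, 8 were higher and 8 lower in all 5 libraries, where 24.3% and 24.5% of all genes were, with a median of -0.16. Among the 8 higher was the rule gene *Pi16*, whose higher level follows from the choice. *Timp3* and *Timp2*, inhibitors of matrix metalloproteinases, had 1.22 and 0.83, and *Pcolce2*, which aids procollagen cleavage, had 1.20, whereas *Timp1* had -1.84, *Mmp3* -1.72 and *Mmp11* -2.58.

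Of 18 growth factor ligand genes, 11 were higher in all 5 libraries, where 24.3% of all genes were, 5 of them at least 2-fold, where 2.03% were, and 6 were lower, where 24.5% were. Among the 6 was the rule gene *Gdf10*, whose lower level follows from the choice. *Bmp7* had 110.4, 97.1, 87.2, 99.6 and 75.7 CPM against 11.1, 19.6, 14.6, 22.1 and 21.1 CPM in the other fibroblasts. *Bmp2* (2.11), *Pdgfc* (1.97), *Fgf2* (1.82), *Fgf18* (1.41), *Tgfb2* (1.18), *Pdgfd* (1.00) and *Wnt2* (0.84) followed by median log2 ratio. The stromal ligands of ductal growth *Fgf10* and *Igf1* were lower, at -1.73 and -1.0. Among 13 binding proteins and antagonists, *Igfbp5* had 2182, 1280, 1788, 1576 and 1606 CPM against 327, 431, 340, 342.5 and 311 CPM, a median log2 ratio of 2.36, whereas *Igfbp7* had 345, 359, 304, 328 and 323 CPM against 2503, 2041, 1995, 2241 and 2152 CPM, or -2.73. *Sfrp4* and *Sfrp1*, secreted inhibitors of Wnt signals, differed in sign, at 1.39 and -2.84.

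Of 17 chemokine, cytokine and decoy receptor genes, 8 were higher in all 5 libraries, where 24.3% of all genes were, 4 of them at least 2-fold, where 2.03% were, and 4 were lower, near the 24.5% of all genes. *Ccl2*, which draws monocytes, had 2683, 2369, 3428, 2754 and 1781 CPM against 669, 727, 883, 507 and 547 CPM, and *Cxcl12*, the ligand that *Ackr3* scavenges, had 163, 197, 159, 242 and 148 CPM against 728, 549, 473, 427 and 398 CPM. *Il33*, an alarmin, had a median log2 ratio of 1.83 and *Ackr3* of 2.07. Of 11 complement genes, 6 were higher, with *C3* at 1.09, *Cfb* at 1.3 and *Serping1* at 0.86, and 2 were lower, with *C2* at -0.95, beside the same shares of all genes. *Aldh1a3* differed in sign from *Rbp4*, a retinol carrier, with 218, 156.5, 192, 225 and 186 CPM against 21.8, 19.2, 31.3, 28.1 and 24.5 CPM, while *Rbp4* had -1.74. Immediate early genes, which respond to tissue dissociation, had a median of -0.37, with 13 of 21 lower in all 5 libraries, where 24.5% of all genes were, and 4 higher, where 24.3% were, *Klf2* at 1.06 among them.

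Receptors and enzymes for steroids bear on the treatments. *Esr1*, the estrogen receptor-α gene, had 59.7, 64.8, 43.6, 68.3 and 62.9 CPM in the chosen cells, 36.3, 31.1, 25.4, 28.7 and 31.1 CPM in the other fibroblasts and 94.8, 43.7, 33.6, 38.4 and 36.6 CPM in epithelial barcodes. The chosen cells were above the other fibroblasts in all 5 libraries and above epithelial barcodes in all except OVX. *Nr3c1*, the glucocorticoid receptor gene, had a median log2 ratio of 0.04. *Pgr*, the progesterone receptor gene, had 3.70, 10.8, 9.76, 15.7 and 19.4 CPM, with 74.6, 94.2, 80.6, 70.8 and 94.1 CPM in epithelial barcodes. After thinning, 0.958%, 2.28%, 2.75%, 3.35% and 5.09% of chosen cells had a *Pgr* UMI, against 15.7%, 24.3%, 20.9%, 19.1% and 25.9% of epithelial barcodes. The *Pgr* level was 4.96%, 11.5%, 12.1%, 22.1% and 20.6% of the epithelial level, from 25 to 89 UMIs. The sum of 13 epithelial markers was 2.545%, 4.33%, 3.98%, 6.86% and 6.21% of its epithelial level, below *Pgr* in each library. In the other fibroblasts *Pgr* was at 2.474%, 4.485%, 3.501%, 5.915% and 14.17%. There the sum was at 1.596%, 3.68%, 3.116%, 6.227% and 5.441%, above *Pgr* in OVX_E2_P4 only. The fibroblast gate limits *Epcam* and *Krt18* but not *Pgr*, so the choice can hold epithelial markers down. Whether the *Pgr* UMIs came from the chosen cells themselves was not tested. *Esr2*, the estrogen receptor-β gene, had 0 UMIs in the chosen cells of all 5 libraries, which allows up to 0.444, 0.952, 0.329, 1.88 and 1.42 CPM (3 UMIs of each total).

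Of 8 steroid-metabolizing enzymes, *Akr1c18* and *Akr1c14* (median log2 ratio 0.82) were higher in the chosen cells in all 5 libraries and 4 were lower, where 24.3% and 24.5% of all genes were, so the count of higher enzymes was near that of all genes. *Hsd11b1*, which regenerates active glucocorticoid, was the lowest of the 8, with 90.1, 58.4, 48.5, 66.4 and 31.7 CPM against 266, 170.1, 204, 134 and 172 CPM. Of 12 genes that respond to xenobiotics, 7 were higher in all 5 libraries, where 24.3% of all genes were, and 1 was lower, with a median of 0.59. *Srxn1*, *Hmox1*, *Gstm1* and *Gclc*, which act against oxidants, had 1.20, 0.99, 0.89 and 0.79. *Cyp1a1* had 0 UMIs in the chosen cells of all 5 libraries, with the same upper limits, and *Cyp1b1*, a cytochrome induced through the aryl hydrocarbon receptor, had 15.4, 8.89, 7.02, 7.52 and 7.57 CPM, at a median log2 ratio of -2.56.

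The chosen cells were not uniform. Over 1031 genes with a mean of at least 0.3 UMIs at 3000 UMIs per cell, the median ratio of variance to mean (Fano factor, median over libraries) was 1.08, and 8.15% reached 2. *Ccl2* had 30.0 (21.9 to 33.5 over the libraries), *Mt1*, a metallothionein, 18.7, *Ccl7* 17.3, *Malat1* 15.1, *Mt2* 14.5, *Cxcl1* 13.8 and *Fos* 9.75. A *Ccl2* UMI was present in 47.5%, 44.7%, 61.3%, 47.6% and 44.3% of the cells, and the tenth of cells with the most *Ccl2* held 64.5%, 61.1%, 47.6%, 57.2% and 61.7% of its UMIs.

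Pairs of variable genes, chosen after their values were seen, varied together among the chosen cells of a library. *Mt1* and *Mt2* had a median r of 0.75, *Col1a1* and *Col3a1* of 0.49, *Ccl2* and *Ccl7* of 0.48 (0.33 to 0.54), *Krtdap* and *Sbsn* of 0.45 (0.39 to 0.53), *Ccl2* and *Cxcl1* of 0.40 (0.34 to 0.43) and *Isg15* and *Ifit1*, interferon response genes, of 0.37. *Ccl2* had a median r of -0.01 with *Pi16* and of -0.25 with *Fos*. These r values are over 269 to 1198 cells of one library, which share its preparation.

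Estradiol was compared in OVX_E2 against OVX, a single pair. The chosen cells had more transcripts of *Mgp*, matrix Gla protein, and of *Agtr2*, the angiotensin II type 2 receptor gene, with estradiol, and fewer of *Mrgprg* and of *Sult1e1*, the sulfotransferase that inactivates estrogens. *Mrgprg* had 320 CPM in OVX and 22.9, 67.2, 105 and 34.5 CPM in the other 4, so that OVX lay above all libraries with estradiol. With 2159 UMIs in OVX and 72 in OVX_E2, the ratio was 0.0725 (0.0557 to 0.0904), a log2 ratio of -3.79, and in the other fibroblasts it was -3.90 at a lower level, 17.1 CPM in OVX and 0.768 in OVX_E2, from 111 and 2 UMIs. After thinning, 42.0% of chosen cells had an *Mrgprg* UMI in OVX and 4.56%, 11.8%, 20.1% and 8.69% in the other libraries, against 3.88% of other fibroblasts and 2.73% of epithelial barcodes in OVX.

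*Sult1e1* had 13.8, 1.59, 4.06, 0.627 and 0.473 CPM in the chosen cells, with 93 UMIs in OVX, 5 in OVX_E2 and 1 in each library with progesterone, a ratio of 0.137 (0.0366 to 0.279), and its log2 ratio was -2.87 here and -3.62 in the other fibroblasts. *Mgp* had 8.29, 46.7, 41.5, 36.3 and 62.0 CPM, with 56 UMIs in OVX and 147 in OVX_E2, a ratio of 5.57 (4.11 to 7.80), and OVX was the lowest library. *Agtr2* had 6.96, 31.7, 28.8, 18.8 and 27 CPM and a ratio of 4.51 (3.20 to 6.60). In the other fibroblasts the log2 ratios were 1.57 for *Mgp* and 2.14 for *Agtr2*. Also among the 5 highest that had at least 2 times the level of epithelial and of hematopoietic barcodes were *Spon1*, a rule gene (log2 ratio 2.13), *Tmod1*, tropomodulin (2.06, from 17 and 34 UMIs), and *Cyp2c44*, an arachidonic acid oxidase (1.99, from 19 and 36 UMIs).

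In all, 149 of 8779 genes (1.7%) were at least 2-fold higher in OVX_E2 and 109 (1.24%) at least 2-fold lower, together 2.94% (152 and 61 with 5 UMIs added in place of 1, and 102 and 105 without the highest 20% of doublet scores), of which 44 and 41 stood clear of free RNA, having in the higher library at least 2 times the level of epithelial and of hematopoietic barcodes. The 3 globin genes *Hba-a2*, *Hbb-bs* and *Hba-a1*, known from red blood cells, were among the 5 lowest of these, at -5.13, -4.37 and -3.61, and met this limit since epithelial and hematopoietic barcodes had little of them. Red blood cell genes summed to 260.4 CPM in the chosen cells of OVX, with *Hbb-bs* at 144 CPM, and to 13.3, 8.99, 20.7 and 33.6 CPM in the other libraries. In the other fibroblasts of OVX they summed to 257 CPM, as high as in the chosen cells, and in its epithelial barcodes to 19.3 CPM, so the limit does not set globin transcripts apart from red blood cell RNA shared by fibroblast barcodes.

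Of the 32 adventitial markers, 0 were at least 2-fold higher with estradiol, where 1.7% of all genes were, and 3 at least 2-fold lower, where 1.24% were, *Stmn4* (-1.72), *Dact2* (-1.60) and *Uchl1* (-1.42), and the median log2 ratio was -0.12, where that of all genes was 0.03. *Anxa3* had a ratio of 0.998 (0.960 to 1.04), *Dpp4* of 1.15 (1.07 to 1.24), *Pi16* of 0.794 and *Akr1c18* of 1.61 (1.5 to 1.73). *Has1*, a hyaluronan synthase, had 1379, 811, 885, 899.7 and 758.5 CPM, highest in OVX. Among 16 collagen chains 1 was at least 2-fold higher and 1 at least 2-fold lower, and among 12 estrogen response genes 2 and 0, beside the same 1.7% and 1.24% of all genes. *Lum*, lumican, a proteoglycan that binds collagen fibrils, had 527, 1250, 803, 1006 and 1120 CPM, a ratio of 2.37 (2.27 to 2.48), and *Igfbp3* had 222, 80.0, 50, 82.1 and 55.8 CPM, a ratio of 0.362 (0.314 to 0.413).

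**Figure D5:**
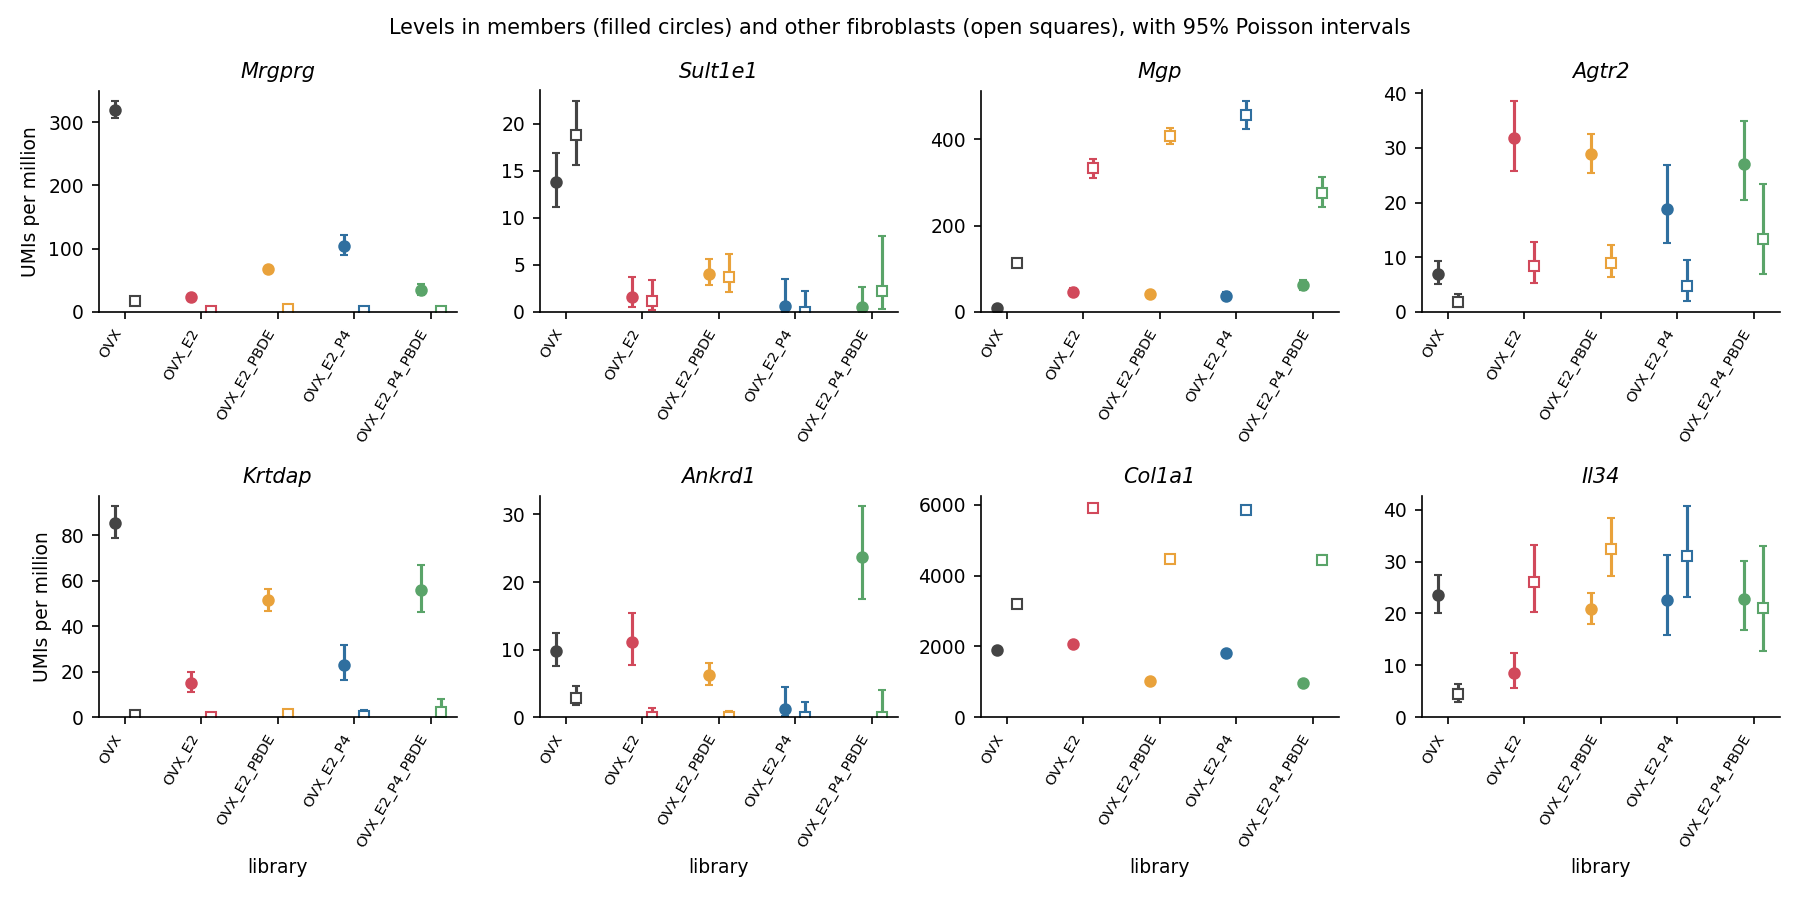
Level in CPM of 8 genes in each of the 5 libraries, in the chosen cells (filled circles) and in other fibroblasts (open squares), with exact 95% Poisson intervals. Mrgprg and Sult1e1 are highest in OVX, at 320 and 13.8 CPM in the chosen cells, and Mgp and Agtr2 are lowest there.

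Progesterone was compared in 2 pairs that share no library, OVX_E2_P4 against OVX_E2 and OVX_E2_P4_PBDE against OVX_E2_PBDE. In the first, 41 of 6695 genes (0.612%) were at least 2-fold higher and 93 (1.39%) at least 2-fold lower, together 2%, 4 and 26 of them clear of free RNA. The median over all genes was -0.11, and scaling by the median ratio of genes turned the split to 66 higher and 52 lower, as 5 UMIs added in place of 1 turned it to 41 and 33. The 4 higher genes were *Mrgprg*, *Cebpb*, *Il34* and *Cthrc1*. *Mrgprg* had a ratio of 4.54 (3.45 to 6.12) and *Il34*, a ligand of the colony-stimulating factor 1 receptor, with 23.5, 8.57, 20.8, 22.6 and 22.7 CPM, of 2.61 (1.55 to 4.51). *Il34* was lowest in OVX_E2, with 27 UMIs, and the other 4 libraries lay close together. *Cthrc1*, a secreted collagen-related protein, had a log2 ratio of 1.03.

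*Cebpb*, a transcription factor of adipocyte and epithelial differentiation, had 396, 378, 1141, 1447 and 1401 CPM, a ratio of 3.83 between OVX_E2_P4 and OVX_E2 (3.57 to 4.11). OVX and OVX_E2 were low and the other 3 libraries high. Other fibroblasts showed 391, 370.2, 1021, 1039 and 1425 CPM and epithelial barcodes 172, 150.3, 384, 602 and 590.5 CPM, in the same order of low and high libraries, so *Cebpb* moved in each of these kinds of barcode. The largest differences downward among genes clear of free RNA were *Epha1*, an ephrin receptor (-2.25, from 46 and 4 UMIs), *Id4* (-1.60), *Gm15261* (-1.55), *Pde1a*, a phosphodiesterase (-1.53, ratio 0.345, 0.166 to 0.588), and *Ccdc91* (-1.52).

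In the second pair, 131 of 8742 genes (1.5%) were at least 2-fold higher and 60 (0.686%) at least 2-fold lower, together 2.18%, 8 and 7 clear of free RNA. The split depended on the 1 UMI added to each sum, with 118 higher and 102 lower when none was added and 184 and 7 when 5 were. *Ankrd1*, a stretch-responsive ankyrin repeat protein, had 9.77, 11.1, 6.25, 1.25 and 23.7 CPM and a ratio of 3.79 (2.54 to 5.63), and *Vps8*, a subunit of an endosomal tethering complex, had 33.8, 29.5, 32.8, 44.5 and 84.7 CPM and a ratio of 2.59 (2.13 to 3.12). Both were highest in OVX_E2_P4_PBDE. Among genes clear of free RNA, *Myoc* (1.5), *Gm6710* (1.36) and *Csf2*, a colony-stimulating factor (1.28), completed the 5 highest, and *Myl4* (-2.09, from 54 and 2 UMIs), *Gm17057* (-1.37), *Ddx60* (-1.30), *Pou5f2* (-1.28) and *Loxl4* (-1.11) were the 5 lowest.

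Few genes differed alike in both progesterone pairs. Of 6689 genes measured in both, 11 (0.164%) were at least 2-fold higher in both, 0 of them clear of free RNA, and 1 (0.0149%) was lower, *Heph*, an iron-oxidizing membrane protein, at -1.02 in each, from 43 and 10 UMIs and from 130 and 14 UMIs. *Mrgprg*, higher with progesterone in the first pair, was lower in the second, at -0.94. *Cebpb* had 0.30 in the second pair and *Akr1c18* ratios of 0.737 (0.663 to 0.817) and 1.10 (1.01 to 1.19). The 31 and 32 adventitial markers measured held 0 genes past 2-fold in each pair, where 2% and 2.18% of all genes were, so that few or none would be past it at those shares, and had medians of -0.08 and -0.03. Among progesterone and glucocorticoid response genes, 1 of 11 was at least 2-fold higher and 1 lower in the first pair, where 0.612% and 1.39% of all genes were, and 1 of 13 higher and 0 lower in the second, where 1.5% and 0.686% were.

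PBDEs were also compared in 2 pairs without a shared library, OVX_E2_PBDE against OVX_E2 and OVX_E2_P4_PBDE against OVX_E2_P4, each of which shares a library with a progesterone pair. In the first, 35 of 9041 genes (0.387%) were at least 2-fold higher and 130 (1.44%) at least 2-fold lower, together 1.83%, 12 and 29 clear of free RNA. The median over all genes was -0.18, and scaling by the median ratio of genes turned the split to 56 higher and 62 lower, while 5 UMIs added gave 19 and 159. In the second pair 39 of 5631 genes (0.693%) were higher and 32 (0.568%) lower, together 1.26%, 10 and 7 clear of free RNA.

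Of 5630 genes measured in both pairs, 4 (0.071%) were at least 2-fold higher and 2 (0.0355%) at least 2-fold lower in both. *Krtdap*, a secreted protein of differentiating keratinocytes, was the 1 clear of free RNA in both. It had 85.4, 14.9, 51.4, 23.2 and 55.8 CPM in the chosen cells and at most 2.22 CPM in the other fibroblasts, with ratios of 3.38 (2.55 to 4.76) and 2.37 (1.65 to 3.59). Its highest level was in OVX, which had no PBDEs, and 8.89%, 3.87%, 8.77%, 4.09% and 9.32% of thinned chosen cells had a UMI of it, against at most 0.683% of epithelial barcodes. The 5 genes that did not stand clear of free RNA in both pairs were *Rnd1*, *Rps27rt* and *Gm10263*, which were higher, and *H2-Q6* and *Dusp5*, which were lower.

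*Mrgprg* differed in sign between the pairs, with a ratio of 2.91 (2.30 to 3.81) without progesterone and of 0.333 (0.247 to 0.437) with it, from 72 and 613 and from 167 and 73 UMIs. *Duox2*, an oxidase that makes hydrogen peroxide, with 18.8, 2.54, 8.22, 13.8 and 5.21 CPM, had a log2 ratio of 1.55 in the first pair. *Cebpb*, described above for progesterone, was about as far apart there, with 378 and 1141 CPM and a ratio of 3.01 (2.84 to 3.21), though its 587.5 CPM in hematopoietic barcodes kept it just short of the free-RNA limit, and its ratio was 0.968 (0.916 to 1.02) in the second pair. *Tac1*, the precursor of substance P, had 1.46 in the first pair, from 15 and 126 UMIs, and -0.69 in the other fibroblasts. *Rnd1* had 1.28 in the first pair. The 5 lowest clear of free RNA in the first pair were *Cpne7* (-1.69), *CAAA01147332.1* (-1.48), *Gm15261* (-1.45), *C030039L03Rik* (-1.45) and *Lgr4*, a receptor for R-spondins (-1.42).

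In the second pair *Ankrd1* had a ratio of 12.8, with a wide interval (4.96 to 160.2) from 2 and 50 UMIs. *Prg4*, the lubricating proteoglycan of joints, had 31.2, 19.7, 33.5, 13.8 and 47.8 CPM and a log2 ratio of 1.74, *Ntn4*, a netrin, of 1.54 and *Angptl1* of 1.47. After *Mrgprg*, the lowest clear of free RNA were *H2-Q7* with 188, 165, 88.7, 219 and 83.3 CPM (-1.39), *Tango2* (-1.34), *Ogfod3* (-1.33) and *Rftn2* (-1.08). *H2-Q7* belongs to a family of near-identical histocompatibility genes, between which reads could be split, and was lowest in the libraries with PBDEs.

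The fibrillar chains *Col1a1* and *Col3a1*, singled out after their values were seen, were lower with PBDEs in both pairs. *Col1a1* had ratios of 0.499 (0.484 to 0.515) and 0.530 (0.50 to 0.561) in the chosen cells, and in the other fibroblasts a log2 ratio of -0.40 in each pair. *Col3a1* had log2 ratios of -0.88 and -0.69. Over the collagen list the median was -0.08 for 17 genes in the first pair, with 7 above and 10 below 0, where all genes had -0.18, and -0.56 for 15 genes in the second, where 13 were below 0 and all genes had -0.05. The adventitial markers, 32 and 30 measured, held 0 genes past 2-fold, with medians of -0.08 and -0.05, and among xenobiotic response genes 0 of 13 and 0 of 11 passed it. With 1.83% and 1.26% of all genes past 2-fold in these pairs, lists of this length would hold few or none at the same shares. *Akr1c18* had ratios of 0.764 (0.716 to 0.815) and 1.14 (1.02 to 1.28).

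Markers of other cell types were low in the chosen cells but not absent. The 13 epithelial markers, none at 0, summed to 355, 677, 609, 1060 and 794 CPM, with *Krt19* the most abundant at 116, 184, 170, 268 and 205 CPM, against 222.6 to 962 CPM in the other fibroblasts and 12770 to 15613 CPM in epithelial barcodes. The level followed the share of epithelium in the library, being lowest in OVX and highest in OVX_E2_P4. Hematopoietic markers summed to 109, 126, 65.6, 82.1 and 212 CPM, with *Ptprc* at 0 by the rule, against 22944 to 33310 CPM in hematopoietic barcodes. Pericyte and smooth muscle markers summed to 21.6, 148, 20.6, 52.0 and 31.7 CPM, of which *Acta2* made up 89.2 CPM in OVX_E2, and endothelial markers to 20.1 to 42.8 CPM. Of the adipocyte markers *Adipoq* was at 0 in all 5 libraries, as were the mesothelial *Msln*, *Lrrn4* and *Upk1b*. Barcodes in the highest 20% of doublet scores (Scrublet) of their library made up 21.25%, 14.6%, 24.8%, 1.86% and 8.26% of the chosen cells. Such barcodes made up 18.95%, 11.1%, 11.2%, 8.77% and 10.4% of the other fibroblasts. Without the barcodes in the highest 20% of scores, the chosen cells were 45.9%, 54.0%, 62.9%, 50.4% and 71.5% of fibroblasts, and 111 and 68 genes were past 2-fold in the PBDE pairs in place of 165 and 71. With free RNA subtracted, 253 and 121 were.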

How the data were processed

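Number 4 mammary glands, freed of the lymph node, were digested, treated to lyse red blood cells and depleted of dead cells, and loaded on a droplet system for 3′ end libraries, 1 per group. The deposited values are raw UMI counts per gene and barcode, which the authors made with Cell Ranger 2.0.0 on mm10 and filtered to called cells per the labels and the study's methods, and no normalization was applied by the authors to these counts. A gene's level is its UMIs summed over the cells per 1000000 of their UMIs. Ratios between libraries add 1 UMI to each sum and cover genes with at least 50 UMIs over both, with exact conditional 95% intervals, and shares have exact Clopper-Pearson intervals. With 1 library per group no count model was fitted, no p-value is given, and with fewer UMIs (OVX_E2_P4) intervals are wider. Droplet libraries hold free RNA, so a gene was named from a comparison when its level in the higher library was at least 2 times that of epithelial and hematopoietic barcodes.

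Named were the rule genes, *Akr1c18*, members of fixed lists, the 20 highest and 10 lowest genes against other fibroblasts with 1 direction in all 5 libraries, the 5 highest and 5 lowest past 2-fold per comparison, genes past 2-fold in both pairs, and the 5 genes most like *Pi16*. The cells and lists were chosen with earlier results of these data known. Doublets were not removed, and Scrublet scores served as an alternative, beside thinning to 3000 UMIs, other thresholds, marker genes, scaling, filters and free-RNA subtraction. *Ltbp4*, *Ccl19*, *Vegfd*, *Cebpd* and *Sts* of the lists had no unambiguous row and were not used, and some other list genes are not reported here. Promoter windows are from RefSeq (GRCm38.p6), 250 bases upstream. The ratios were tested on simulated data. Those data were drawn with counting error only, as the intervals assume, so the test does not cover variation among cells or mice. Python 3.11.15, numpy 2.4.6, scipy 1.17.1, pandas 2.3.3, scanpy 1.11.5 and matplotlib 3.10.9 were used.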

Additional observations from a re-analysis of the deposited data

Results flagged for a closer look

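*Mrgprg*, the orphan receptor gene with the largest median ratio between *Pi16*/*Anxa3* fibroblasts and other fibroblasts among genes with at least 50 UMIs in each library, was singled out because the addition of PBDEs went with log2 ratios of opposite sign, 1.54 without progesterone (OVX_E2_PBDE against OVX_E2, 613 and 72 UMIs) and -1.59 with progesterone (OVX_E2_P4_PBDE against OVX_E2_P4, 73 and 167 UMIs). The difference between the pairs was not tested, since each library stands alone, and its cause was not tested. In the other fibroblasts *Mrgprg* had 17 (OVX_E2_PBDE) and 2 UMIs (OVX_E2) in the first pair and 1 and 2 UMIs in the second, too few to give a ratio.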

How the results depend on the processing

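With 1 library per group, differences between groups carry counting error only, the number of mice per library is not given, and OVX_E2_P4 has the fewest cells. Samples could not be paired by replicate number across groups, since each group has 1 library. The share of fibroblasts in OVX_E2 minus OVX was 8.32 points, 4.11 with *Pi16* left out of the sum, and -17.3 as a share of all barcodes. OVX_E2_P4_PBDE minus OVX_E2_PBDE was 4.27 points, and -3.41 with *Pi16* left out, 8.53 without the highest 20% of Scrublet scores, and -13.9 of all barcodes. OVX_E2_P4_PBDE minus OVX_E2_P4 was 22.4 points, 14.3 with *Pi16* left out and 11.4 of all barcodes.

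Genes past 2-fold numbered 258 for OVX_E2 against OVX, 134 for OVX_E2_P4 against OVX_E2, 191 for OVX_E2_P4_PBDE against OVX_E2_PBDE, 165 for OVX_E2_PBDE against OVX_E2 and 71 for OVX_E2_P4_PBDE against OVX_E2_P4. In that order they numbered 561, 417, 539, 463 and 286 at a minimum of 20 UMIs and 2939, 2174, 3720, 2517 and 2375 with no minimum, since more genes with few UMIs entered. With all fibroblasts in place of the chosen cells the first and last were 398 and 164. With 5 UMIs added to each sum the second was 74, and with free RNA subtracted the fourth and last were 253 and 121. The cause of these 5 was not tested. *Tac1* in OVX_E2_PBDE against OVX_E2 turned from 1.46 to -0.58 with all fibroblasts. Of 1006 settings tried for single genes and for the median log2 ratio of the adventitial markers, 941 stayed within the limit set, 64 left it without changing sign past 2-fold and 1 changed sign. The limit was the counting interval for a gene and the standard deviation over libraries for the median of the markers.

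Of 32 adventitial markers, with no filter on UMIs, 31 were higher in the chosen cells in all libraries (9.84% of 18479 genes with a UMI in fibroblasts were, under the rule as given), under each of the settings tried and, leaving out each library in turn, between 31 and 31. The limit on epithelial UMIs raised to 20 and the use of *Dpp4*, *Sema3c* and *Cd55* in place of *Pi16*, *Anxa3* and *Efhd1* were chosen after seeing the data.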
